A study of Mus musculus with 6 samples.

Results

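The genes described here are a set of late erythroid maturation genes, active while a red cell precursor condenses and loses its nucleus and clears its organelles. They were chosen on measured values: 10 symbols were selected from genes that were lower in one of the crosses compared here. The difference between the crosses is therefore given for them as a description. Counts of their probe sets past a threshold are given too, but the choice made passing likely and nothing is read from them. Every probe set annotated with exactly 1 gene symbol was taken if that symbol was in the set. This gave 16 probe sets for 8 genes (Xpo7, Trim10, Ypel4, Tmcc2, Cldn13, Hemgn, Tspo2 and Tac2), out of 45037 probe sets and 18193 genes. Bnip3l, the mitochondrial receptor that marks mitochondria for removal in reticulocytes, has 3 probe sets that carry several symbols, and Trim58, a ubiquitin ligase of enucleating erythroblasts, has none with its symbol here, so neither was analysed.

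The data are Affymetrix arrays of spleen from 6 F1 females, 1 array per sample, with no age given in the labels. In 3 animals the parents were AKR/J and FVB/NJ (AKR/J F1), and in 3 they were DBA/2J and FVB/NJ (DBA/2J F1). All 6 therefore carry an FVB/NJ chromosome set, and all were killed under Avertin anaesthesia, with no other treatment named in the labels. The comparison asks which transcripts differ at baseline between these genotypes. All values are log2 signals, and all differences are AKR/J F1 minus DBA/2J F1, so a negative value is lower in AKR/J F1 spleens.

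Red cells mature from nucleated erythroblasts that divide, fill with haemoglobin, shrink and condense their nucleus and then expel it. The reticulocyte that is left degrades its mitochondria and ribosomes through autophagy and the ubiquitin system. In mice the red pulp of the spleen makes red cells throughout adult life, so RNA of these stages is normally part of a spleen sample. GATA1, KLF1 and NF-E2 are the transcription factors best known for switching on genes of this program.

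Start-site sequence was on hand for 6 of the 8 measured genes, in 8 windows of 300 bases from 250 bases before to 50 bases after a RefSeq start (assembly GRCm38.p6). The letters AGATAA or TGATAA, read by GATA factors, were found on either strand in windows of 3 of the 6 genes, and 18.6% of all 32851 such windows hold them. CCNCNCCC, a form of the site read by KLF factors, was found for 4 of the 6 genes, against 49.5% of all windows, and TGAGTCA or TGACTCA, a form of the NF-E2 site, for 2, against 5.20% of all windows. A gene was counted if any of its windows held a match, while the shares are of single windows. The counts and shares are therefore not like for like. Matches of one motif may overlap each other. A match is a run of letters and not a shown binding site. These 4 windows are printed below because they hold the matches to the GATA or NF-E2 letters, with all matched letters of the 3 motifs in capitals. Hemgn (chr4:46404134-46404433, minus strand) has GATA letters 13 bases before and 28 bases after the start. Tmcc2 has them 33 bases before one of its 3 starts (chr1:132367899-132368198, minus strand). Trim10 (chr17:36869324-36869623, plus strand) has GATA letters 163 bases and NF-E2 letters 56 bases before the start. Ypel4 (chr2:84733954-84734253, plus strand) has NF-E2 letters 154 bases before the start and 4 KLF matches. The window of Tac2 held none of the 3 motifs, and that of Tspo2 held KLF letters alone.
Hemgn: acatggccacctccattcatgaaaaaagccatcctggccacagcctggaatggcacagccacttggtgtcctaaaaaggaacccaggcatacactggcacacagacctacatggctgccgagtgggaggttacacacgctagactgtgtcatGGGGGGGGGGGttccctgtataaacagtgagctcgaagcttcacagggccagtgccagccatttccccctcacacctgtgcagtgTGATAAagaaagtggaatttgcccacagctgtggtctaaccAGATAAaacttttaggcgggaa
Tmcc2: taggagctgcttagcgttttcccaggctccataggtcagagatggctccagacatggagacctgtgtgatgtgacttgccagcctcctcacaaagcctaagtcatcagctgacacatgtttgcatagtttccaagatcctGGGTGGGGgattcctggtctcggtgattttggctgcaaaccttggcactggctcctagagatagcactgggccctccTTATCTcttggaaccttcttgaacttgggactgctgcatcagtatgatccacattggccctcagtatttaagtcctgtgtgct
Trim10: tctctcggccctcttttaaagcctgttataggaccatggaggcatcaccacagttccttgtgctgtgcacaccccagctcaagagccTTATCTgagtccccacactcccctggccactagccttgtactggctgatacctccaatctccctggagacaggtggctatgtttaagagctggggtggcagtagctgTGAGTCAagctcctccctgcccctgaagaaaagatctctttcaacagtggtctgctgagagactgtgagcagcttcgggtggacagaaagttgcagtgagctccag
Ypel4: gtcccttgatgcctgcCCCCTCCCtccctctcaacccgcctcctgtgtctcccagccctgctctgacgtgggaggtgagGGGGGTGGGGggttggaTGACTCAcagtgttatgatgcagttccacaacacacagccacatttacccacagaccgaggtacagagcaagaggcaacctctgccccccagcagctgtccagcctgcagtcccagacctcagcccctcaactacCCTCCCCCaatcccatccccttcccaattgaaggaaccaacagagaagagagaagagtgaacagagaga

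Pancreatic genes were bright in all arrays but 1, and other cell types differ between the crosses. The 7 measured pancreatic acinar genes (enzymes of the exocrine pancreas, not a spleen cell) lay between 12.98 and 14.07 in every array but 1, and between 5.48 and 8.64 in DBA/2J animal 3. The other arrays thus held strong signal of pancreatic genes, where the highest signal of any probe set was 14.56 (DBA/2J animal 2). Results are also given without DBA/2J animal 3, which leaves only arrays with that pancreatic signal. The spleen's own red cell program was plainly present: 15 measured markers of terminal erythroid cells averaged 8.44, 8.56 and 7.96 in AKR/J F1 spleens, against 9.53, 10.08 and 10.20 in DBA/2J F1 spleens. Of 7 T cell genes 7 passed as higher in AKR/J F1 spleens (median difference 0.58), as did 2 of 5 B cell genes (0.30). All 8 measured genes of dividing cells passed as lower in AKR/J F1 spleens (-1.29). Over all genes, 8.91% passed as higher and 8.31% as lower in AKR/J F1 spleens. Of 7 neutrophil, 7 megakaryocyte and 6 macrophage genes 0 passed in limma. At an unadjusted p under 0.05 these numbered 0, 4 and 1. Their medians were -0.24, -0.35 and 0.01. In whole tissue, fewer cells of a type and less RNA per cell cannot be told apart. The part of these other cells, of the pancreatic signal and of DBA/2J animal 3 in the differences below was not tested.

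All 8 measured genes were lower in AKR/J F1 spleens at their brightest probe set, with no overlap between the crosses. Their differences ran from -2.67 (Cldn13) to -1.18 (Tspo2), with a median of -2.25, against a median of -0.01 over all 18193 genes. Of the 16 probe sets, 11 had an adjusted p under 0.05 and were lower in AKR/J F1 spleens, where 5.26% of all 45037 probe sets did so, and all 3 AKR/J arrays lay below all 3 DBA/2J arrays at 11, where 18.3% of all probe sets did so. Because the genes were chosen on this difference, nothing is read from these counts. Ordered by their difference among all 18193 genes, from the most negative up, Cldn13 was at place 1, Tmcc2 at 3, Trim10 at 7, Ypel4 at 10, Tac2 at 11, Hemgn at 13, Xpo7 at 95 and Tspo2 at 121. Without DBA/2J animal 3 the differences of these genes were between -2.47 (Cldn13) and -0.99 (Tspo2), and 10 of the 16 probe sets passed.

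**Figure D1:**
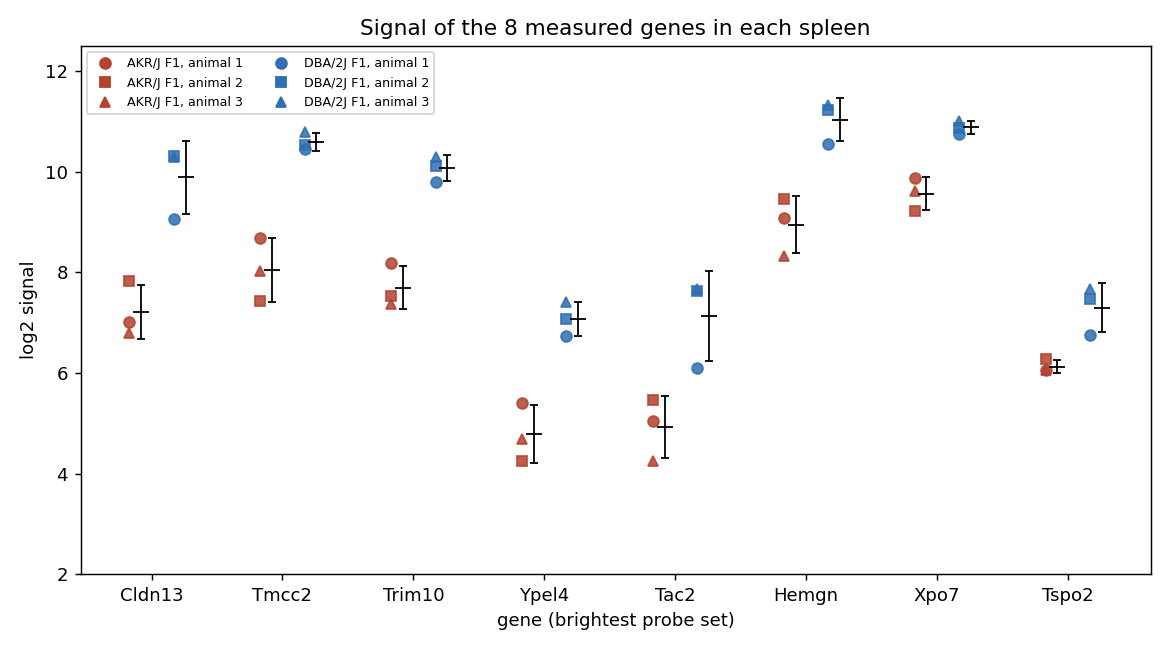
Log2 signal of the brightest probe set of each measured gene in the 3 AKR/J F1 spleens (red, left of each pair) and the 3 DBA/2J F1 spleens (blue), with marker shape for the animal number and black bars for mean ± SD (n = 3 each). In every gene the red points lie below the blue ones, and the difference of means is largest for Cldn13 (-2.67) and smallest for Tspo2 (-1.18). Signals of different probe sets are not comparable in amount.

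The nuclear proteins come first. Hemgn encodes hemogen, a nuclear protein of blood-forming cells. It had signals of 9.07, 9.45 and 8.33 in AKR/J F1 spleens, against 10.55, 11.22 and 11.33 in DBA/2J F1 spleens. Its highest AKR/J value stayed about 1 log2 unit below its lowest DBA/2J value, and the difference was -2.08 ± 0.29 (SE), a ratio of 0.236. Xpo7 encodes a nuclear transport receptor of the exportin family, which mouse erythroblasts use during nuclear condensation. At its brightest probe set it had 9.87, 9.22 and 9.61 in AKR/J F1 spleens, against 10.76, 10.88 and 11.00 in DBA/2J F1 spleens. The AKR/J arrays were more spread out than the DBA/2J arrays (SD 0.33 and 0.12), and the difference was -1.31 ± 0.16, a ratio of 0.403.

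Trim10 is the measured member of the ubiquitin ligase type. It encodes a RING finger protein that mouse erythroid cells in culture need for terminal differentiation. Its signals were 8.19, 7.53 and 7.37 in AKR/J F1 spleens, against 9.79, 10.12 and 10.30 in DBA/2J F1 spleens. The difference of -2.37 ± 0.21, a ratio of 0.193, had the smallest SE relative to its size among the 6 genes lower by more than 2 log2 units. Trim10 lies in the extended major histocompatibility region of chromosome 17. Its neighbours in the tripartite motif family there, Trim15, Trim26 and Trim39, had differences of 0.02, 0.12 and 0.25, and none of the 3 passed. Trim15 was dim in every array (2.92 to 3.14), which limits what its difference can show.

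Proteins of membranes make up the next group. Cldn13 encodes a claudin of rodents that has no human counterpart and that is found in the red cell lineage of the mouse. It had 7.02, 7.82 and 6.80 in AKR/J F1 spleens, against 9.06, 10.31 and 10.29 in DBA/2J F1 spleens. DBA/2J animal 1 was more than 1 log2 unit below the other two of its cross and still above every AKR/J array. The difference was -2.67 ± 0.37, a ratio of 0.157. Tmcc2, which encodes a transmembrane and coiled-coil protein, had 8.69, 7.42 and 8.03 in AKR/J F1 spleens, against 10.45, 10.53 and 10.80 in DBA/2J F1 spleens. Its DBA/2J arrays were close together (SD 0.18) and its AKR/J arrays were not (SD 0.63), and the difference was -2.55 ± 0.27. The other Tmcc2 probe set had 8.65, 7.14 and 7.60, against 10.50, 10.51 and 11.16, with a difference of -2.93 ± 0.35. Both probe sets thus put animal 2 lowest and animal 1 highest among AKR/J F1 spleens. Tspo2, the red cell relative of the cholesterol-binding protein Tspo, had 6.05, 6.27 and 6.05 in AKR/J F1 spleens, against 6.76, 7.48 and 7.66 in DBA/2J F1 spleens. Its AKR/J arrays differed little (SD 0.12, against 0.48 in DBA/2J F1 spleens), and its difference of -1.18 ± 0.21 was the smallest of the 8.

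The last pair were the dimmest of the 8 genes when each was read at its brightest probe set. Ypel4 encodes a small zinc-binding protein of the Yippee-like family, and it had 5.39, 4.26 and 4.69 in AKR/J F1 spleens, against 6.73, 7.07 and 7.41 in DBA/2J F1 spleens. Tac2, which encodes the precursor of neurokinin B in the mouse, had 5.05, 5.46 and 4.25, against 6.10, 7.63 and 7.68. In both genes an AKR/J array fell below 5.04, the lowest median of any array. The differences were -2.29 ± 0.28 for Ypel4 and -2.21 ± 0.44 for Tac2. The SE of Tac2 was the widest of the 8 genes, with an SD of 0.90 in DBA/2J F1 spleens, where animal 1 lay 1.04 below the mean of its cross.

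Xpo7 has 8 probe sets, and they did not behave alike. The 2 bright ones gave -1.31 ± 0.16 and -1.41 ± 0.15, the second from 8.09, 7.52 and 7.83 in AKR/J F1 spleens, against 9.09, 9.16 and 9.42 in DBA/2J F1 spleens. Another probe set was dim and gave a difference of -1.10 ± 0.13, from 2.95, 2.97 and 3.09 in AKR/J F1 spleens, against 3.83, 4.16 and 4.31 in DBA/2J F1 spleens. The remaining 5 gave -0.61, -0.33, 0.03, 0.07 and 0.24, overlapped between the crosses, and had no cross mean above 4.85. Averaging all 8 gave -0.55, so the value of Xpo7 depends by more than 1.5 times on which probe sets are read. The arrays carry no detection calls, and whether the 5 dim probe sets measure the processed transcript was not tested.

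**Figure D2:**
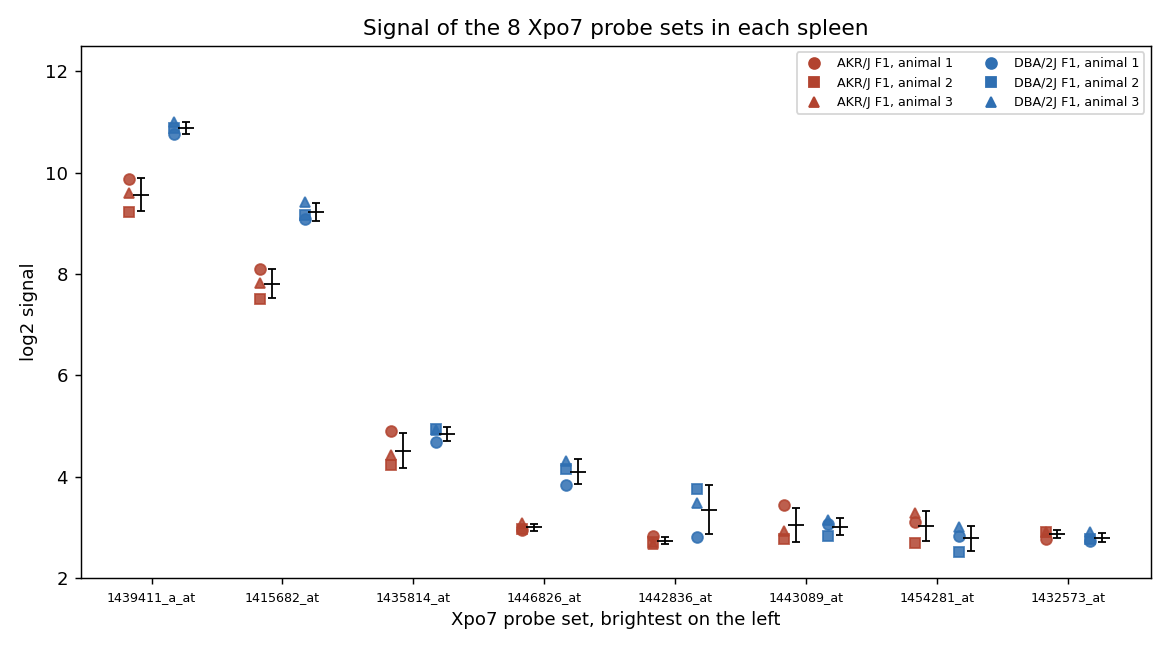
Log2 signal of the 8 Xpo7 probe sets in each spleen, ordered from the brightest on the left, with AKR/J F1 spleens in red left of DBA/2J F1 spleens in blue, marker shape for the animal and bars for mean ± SD (n = 3 each). The crosses separate at the 2 bright probe sets (-1.31 and -1.41) and at 1 dim probe set (-1.10), and overlap at the other 5, whose means do not exceed 4.85.

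Within each cross the 8 genes did not all follow the same animals, and this order played no part in their choice. Among DBA/2J F1 spleens, animal 1 was lowest for 8 of 8 genes and animal 3 highest for 7 of 8, the exception being Cldn13. Most other genes lower in AKR/J F1 spleens had this order too, as given below. Among AKR/J F1 spleens the genes fell into 2 patterns of 4. Cldn13, Tac2, Hemgn and Tspo2 were highest in animal 2 and lowest in animal 3. For Tspo2, animals 1 and 3 were all but equal (6.055 and 6.053), so which of them was lowest is not settled. Tmcc2, Trim10, Ypel4 and Xpo7 were highest in animal 1, and 3 of them, all but Trim10, were lowest in animal 2. Relative to the AKR/J mean, Tmcc2 stood at 0.64 in animal 1 and -0.62 in animal 2, while Cldn13 stood at -0.20 and 0.61 in those animals.

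Other genes lower in AKR/J F1 spleens were mostly lowest in animal 3, as Cldn13, Tac2, Hemgn and Trim10 were, and Tspo2 by a very small margin. These other genes differed in which animal was highest. Animal 3 was lowest among AKR/J F1 spleens for 15 of 15 terminal erythroid markers, for 7 of 8 genes of dividing cells, and for 144 of the 180 other genes that passed and were at least 2-fold lower in AKR/J F1 spleens. Animal 2 was lowest for 0 of 15, 0 of 8 and 10 of 180 (5.56%). Animal 2 was highest for 10 of the 15 markers, 8 of the 8 genes of dividing cells and 126 of the 180 other genes, and animal 1 for 5, 0 and 47. The 5 markers highest in animal 1, Epb42, Slc25a37, Fech, Alas2 and Slc4a1, had the order of Trim10, lowest in animal 3. The order highest in animal 1 and lowest in animal 2, which Tmcc2, Ypel4 and Xpo7 share, was seen in 8 of those 180 genes (4.44%). The order among DBA/2J F1 spleens was not particular to the 8 genes. There animal 1 was lowest for 13 of the 15 markers, 8 of the 8 genes of dividing cells and 160 of the 180 other genes (88.9%). Animal 3 was highest there for 12, 8 and 151. These genes share their 6 arrays and are not independent, each animal was measured once, and the split was noticed in the values, so it has no test.

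**Figure D3:**
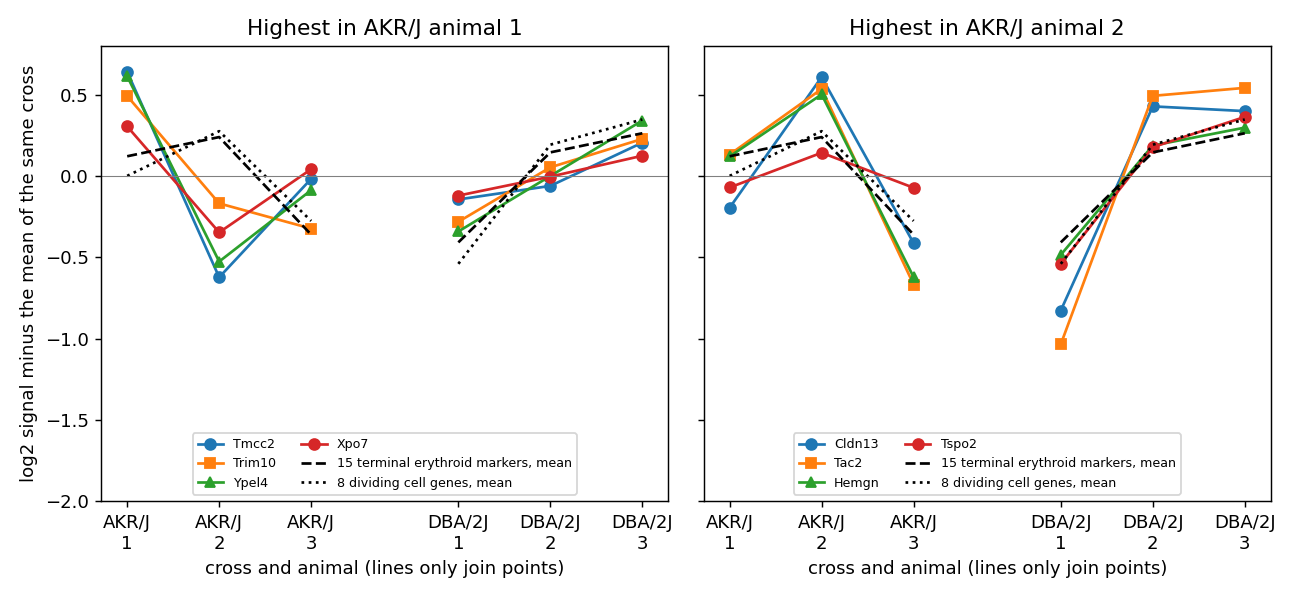
Log2 signal of each measured gene minus the mean of its cross, by animal, with AKR/J F1 spleens left of DBA/2J F1 spleens; the left panel holds the 4 genes highest in AKR/J animal 1 and the right panel the 4 highest in AKR/J animal 2. Black lines are the means of 15 terminal erythroid markers (dashed) and 8 genes of dividing cells (dotted), which follow the right panel in AKR/J F1 spleens, where Tmcc2 has 0.64 and -0.62 in animals 1 and 2 and Cldn13 has -0.20 and 0.61.

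Averaged over the 8 genes and centred on the mean of all 6 arrays, the profile was -0.79, -1.03 and -1.31 in AKR/J F1 spleens and 0.57, 1.20 and 1.35 in DBA/2J F1 spleens. Trim10 lay closest to it, with a root mean square difference of 0.21 log2 units over the 6 arrays, and Tspo2 farthest (0.48). Clone and predicted names were passed over in ranking the genes outside the set. The 8 closest of the rest were Pclaf (0.06), Slc4a1 (0.08), Epb42 (0.10), Dmtn (0.12), Sox6 (0.13), Tspan8 (0.14), Slc43a1 (0.15) and Ube2c (0.17). Slc4a1 encodes band 3, the anion exchanger of the red cell membrane, Epb42 encodes protein 4.2 and Dmtn encodes dematin, both of the red cell membrane skeleton. Sox6 is a transcription factor of erythroid cells among others, and Pclaf and Ube2c are genes of dividing cells. At the probe set closest to the profile Slc4a1 had 9.98, 9.63 and 9.36 in AKR/J F1 spleens, against 11.46, 11.89 and 12.09 in DBA/2J F1 spleens. Pclaf was dim, with 3.57, 3.21 and 2.91, against 4.88, 5.37 and 5.57. These genes were picked for their likeness, and their differences are no separate result.

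Markers of terminal erythroid cells, which are not in the set, were lower in AKR/J F1 spleens throughout: 15 of 15 measured passed, where 8.31% of all genes passed in that direction. Their median was -1.57. This list, like those below, was chosen with earlier results of these data known, so its count is not independent of the choice of the members. With each array centred on its median 1229 genes passed as lower and 2048 as higher in AKR/J F1 spleens, and after quantile normalization 1093 and 766, against 1512 and 1621 as deposited. Nfe2, a subunit of NF-E2, had 7.87, 7.89 and 7.39 in AKR/J F1 spleens, against 8.99, 9.39 and 9.41 in DBA/2J F1 spleens. Its difference was -1.54 ± 0.17 (adjusted p = 0.00356 in limma). Epb42 differed by -1.85 ± 0.21, the Rh-associated glycoprotein Rhag by -2.34 ± 0.28, the mitochondrial iron importer Slc25a37 by -1.22 ± 0.15 and ferrochelatase Fech, the last enzyme of haem synthesis, by -1.11 ± 0.14. Without 1 array, 13 to 15 of the 15 passed.

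Early progenitor markers did not move as one. Of 10 measured, 3 passed as lower in AKR/J F1 spleens, namely the transcription factor Tal1 (-1.69 ± 0.25), the surface protein Cd24a (-0.96 ± 0.17) and Lmo2, a partner of Tal1 (-0.48 ± 0.11), all of which erythroblasts also express. The stem and progenitor antigen Cd34, also a gene of blood vessels, passed as higher (0.38 ± 0.10, adjusted p = 0.0417 in limma), where 8.91% of all genes passed in that direction. The other 6 did not pass, among them Myb (-0.20 ± 0.14) and Gata2 (-0.06 ± 0.09), and the median was -0.13. The 4 calls were 2 without AKR/J animal 1 or 2 or DBA/2J animal 3, and 1 without DBA/2J animal 2. Cd34 did not pass with any single array left out, nor after quantile normalization.

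Genes of nuclear condensation, nuclear opening and enucleation, the step in which Xpo7 takes part, were lower in AKR/J F1 spleens in 7 of 18 cases and higher in 0, with 11 that did not pass and a median of -0.35, where 8.31% of all genes passed as lower and 8.91% as higher. E2f2, a cell cycle transcription factor, had 8.27, 8.06 and 7.63 in AKR/J F1 spleens, against 9.07, 9.26 and 9.48 in DBA/2J F1 spleens, a difference of -1.28 ± 0.17 (adjusted p = 0.00691 in limma). The formin Diaph3, an actin nucleator of dividing and enucleating cells, differed by -0.93 ± 0.15 and the Myc antagonist Mxi1 by -0.55 ± 0.09. Pleckstrin 2 (Plek2), an actin regulator of erythroblasts, differed by -1.81 ± 0.31 and the retinoblastoma gene Rb1 by -0.44 ± 0.09. Diaph3 was dim in every array (3.83 to 5.08), and Plek2 in the AKR/J arrays (3.47 to 3.87), which limits what their differences can show. The bright GTPase genes Rac2 (0.18 ± 0.08) and Rac1 (0.12 ± 0.09), used by most blood cells, did not pass. The count was 3 and 4 without AKR/J animals 1 and 3, 4 without DBA/2J animal 2 or 3, and 11 without DBA/2J animal 1, 1 of them higher.

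Ubiquitin pathway genes of maturing red cells were lower in AKR/J F1 spleens in 11 of 19 cases, with 1 higher and 7 that did not pass. Their median was -0.48, where 8.31% of all genes passed as lower and 8.91% as higher. The list was picked for red cell maturation and does not stand for the ubiquitin pathway, or the ligase class of Trim10, as a whole. Ube2o, the conjugating enzyme that clears ribosomes from mouse reticulocytes, had 7.11, 6.93 and 6.92 in AKR/J F1 spleens, against 7.80, 7.76 and 7.92 in DBA/2J F1 spleens. It differed by -0.84 ± 0.09 (adjusted p = 0.00336 in limma), and its crosses did not overlap. Ube2c, the conjugating enzyme of the anaphase-promoting complex in mitosis, differed by -1.83 ± 0.20. Ubac1, a subunit of the KPC ubiquitin ligase, differed by -1.43 ± 0.19, the F-box gene Fbxo30 by -1.09 ± 0.15 and Ube2l6, which conjugates ISG15, by -1.16 ± 0.17. The 1 gene that was higher, named after its value was seen, was Ube2d1 (0.48 ± 0.10). The bright genes Ube2b (0.02 ± 0.09) and Ddb1 (-0.17 ± 0.09) did not pass. The 12 calls were 6, 7 and 6 without AKR/J animals 1, 2 and 3, and 5 and 6 without DBA/2J animals 2 and 3.

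Autophagy and mitochondrial clearance genes, the process of Bnip3l, passed in each direction at a share not far from that of all genes. Of 23 measured, 2 passed as lower in AKR/J F1 spleens, 3 as higher and 18 did not pass, with a median of -0.06, where 8.31% of all genes passed as lower and 8.91% as higher. After quantile normalization the split was 5 lower and 0 higher. Bcl2l1, which encodes the survival protein Bcl-xL of erythroblasts, was lower (-0.54 ± 0.09, adjusted p = 0.0139 in limma), with 8.32, 8.12 and 8.03 in AKR/J F1 spleens, against 8.76, 8.64 and 8.70 in DBA/2J F1 spleens. The phagophore protein gene Wipi1 was also lower (-0.55 ± 0.12). The mitochondrial kinase Pink1 (0.46 ± 0.10), the mitophagy receptor Fundc1 (0.35 ± 0.07) and the autophagy kinase Ulk2 (0.32 ± 0.09) were higher. Gabarap (0.02 ± 0.07) and Map1lc3b (-0.06 ± 0.08), which encode proteins of the autophagosome membrane, did not pass, and neither did Bnip3, the closest relative of Bnip3l (0.08 ± 0.09). The 5 calls fell to 1 without any single AKR/J array, and without DBA/2J animal 2 or 3.

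**Figure D4:**
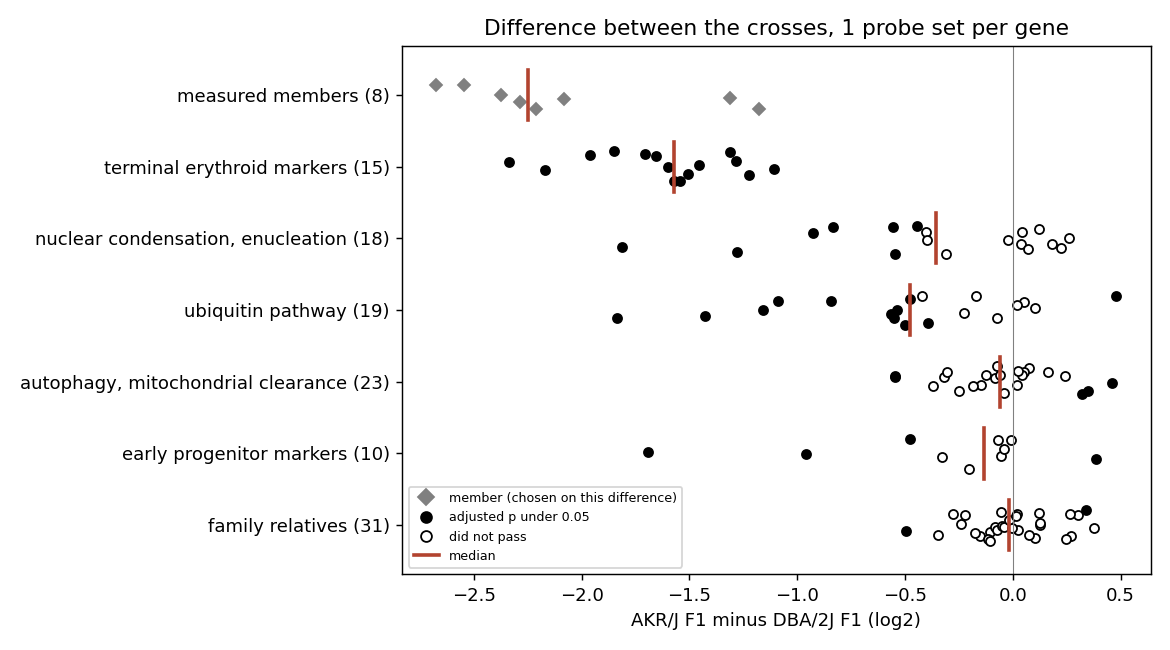
Difference between the crosses (AKR/J F1 minus DBA/2J F1, log2) for each gene, 1 probe set per gene, by list, with filled circles for an adjusted p under 0.05 in limma, open circles for genes that did not pass, and red bars for medians. Members (grey diamonds, median -2.25) were chosen on this difference. The terminal erythroid markers lie at -1.57 in the median with 15 of 15 filled. The ubiquitin list, picked for maturing red cells, lies at -0.48 and the nuclear list at -0.35. The autophagy list (-0.06) and the family relatives (-0.02) centre near 0.

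Relatives of the 8 genes and of Bnip3l in their own families were also measured, with the tachykinin receptors. Of 31 such genes, 1 passed as lower in AKR/J F1 spleens, 1 as higher and 29 did not pass, where 8.31% of all genes passed as lower and 8.91% as higher, and the median was -0.02. The gene that was lower was Tspo, the widely expressed relative of Tspo2, with 9.56, 9.70 and 9.73 in AKR/J F1 spleens, against 10.11, 10.21 and 10.16 in DBA/2J F1 spleens (-0.50 ± 0.08, adjusted p = 0.0111 in limma). The gene that was higher was Trim11 (0.34 ± 0.07). Beside Ypel4 (-2.29), the other Yippee-like genes Ypel1, Ypel2, Ypel3 and Ypel5 had values of -0.05, 0.27, -0.05 and 0.02. Beside Tmcc2 (-2.55), Tmcc1 and Tmcc3 had -0.02 and 0.30. Beside Xpo7 (-1.31), the exportins Xpo1, Xpo4, Xpo5, Xpo6, Xpot and Cse1l ran from -0.28 (Xpo4) to 0.13 (Xpot). Beside Cldn13 (-2.67), the claudins Cldn1, Cldn3, Cldn4, Cldn5, Cldn12 and Cldn15 ran from -0.24 (Cldn4) to 0.38 (Cldn12). Beside Tac2 (-2.21), the tachykinin genes Tac1 and Tac4 had -0.35 and -0.12, and the receptor genes Tacr1, Tacr2 and Tacr3 had -0.10, -0.17 and -0.22. Tacr3 encodes the preferred receptor of neurokinin B, and its signals were 3.75, 4.10 and 4.10 in AKR/J F1 spleens, against 4.36, 4.19 and 4.06 in DBA/2J F1 spleens, all below the median of any array. The signals of Cldn1, Cldn15, Ypel1, Tac1, Tac4 and Tacr2 were also below every array median, which limits what their differences can show. A difference between a gene and its relative was not tested. The 2 calls were 1 without AKR/J animal 1 or 3 or DBA/2J animal 2 or 3, and 4 without DBA/2J animal 1.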

How the data were processed

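RNA of 6 spleens was labelled by the standard Affymetrix procedure, per the labels' protocols. The deposited values are log2 signals that the authors had brought to a common scale, with array medians of 5.04 to 5.10. The submitters' processing notes name RMA and MAS5, and the sources used here do not say which of them made the values. Groups and replicate numbers come from the sample titles. Of 45101 probe sets, 64 controls were left out. Platform annotation listed 1 symbol for 34945 probe sets, several for 932 and no symbol here for 9160. Of those with 1 symbol 34741 matched a RefSeq gene identifier. The files name no genome build, so RefSeq (GRCm38.p6) served for names, neighbours and promoter sequence alone.

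Differences were fitted with limma 3.58.1 (lmFit, eBayes) in R 4.3.3 on all 6 arrays, without covariates, with Benjamini-Hochberg adjustment over all 45037 probe sets or, with the brightest probe set of each gene, over 18193 genes, at a threshold of 0.05. The fit was tested on simulated data. Nothing in the labels says that animals of a cross come from separate litters, and the number of arrays limits the precision. With 3 animals a side, the smallest p an exact two-sided permutation test allows is 0.1. The members, lists and naming rule were chosen with earlier results of these data known. The rule named up to 5 called genes of a list by smallest adjusted p and up to 2 uncalled by highest mean. It also named the 8 genes most like the members, passing over clone and predicted names.

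The sample titles link same-numbered animals of the crosses by number alone. The correlations of their deviations were 0.20, 0.11 and 0.05, which do not show whether such animals shared a batch. Alternatives were median centring, quantile normalization, a filter at the 40th percentile of mean signal, a trended and robust variance, the replicate block, averaging the probe sets of each gene, and leaving out each array.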

Additional observations from a re-analysis of the deposited data

How the results depend on the processing

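The differences of the 8 genes kept their direction under all 10 settings that give one, and the median over them was between -2.49 and -2.03 with any 1 array left out. Xpo7 was the exception in size, at -0.55 with all of its probe sets averaged. The number of member probe sets past the threshold was 9 to 12 without 1 array, a description only, since the members were chosen on this difference. In the lists that number was 13 to 15 for terminal erythroid markers, 1 to 3 for early progenitor markers and 3 to 11 for nuclear genes. It was 5 to 13 for ubiquitin pathway genes of maturing red cells, 1 to 7 for autophagy genes and 1 to 4 for family relatives. Over all probe sets the number past the threshold was 1001 to 4793 without 1 array, against 4688 with every array. Family relatives past the threshold numbered 4 with each array centred on its median, 1 after quantile normalization and 4 with the replicate block, against 2 as reported. The replicate block left 11 member probe sets past the threshold, and changed no other count by more than 1.5 times. Values close to the lower end of the signal range, as in most Xpo7 probe sets and in dim relatives such as Trim15 and Tacr3, limit what a difference can show there.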
